A study of Daphnia magna with 45 samples.

Results

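Across whole-body RNA libraries of the water flea Daphnia magna, 150 of the 19159 IDs in the expression table were high together and low together with Dapma7bEVm015017t1, an abundant ID that serves here as the index. Members were chosen from measured values: each ID's log2(CPM + 1), where CPM is an ID's reads scaled to the same total in every library, was reduced by the mean of its own group, and the deviations were correlated with those of the index over 44 libraries. Among the 1172 IDs with a mean of at least 5 CPM and a pooled within-group standard deviation (SD) of at least 1 on that scale, the 150 with the highest Pearson r, the index included, are the members. Their shared movement within groups is therefore what selected them, and it is described here with no test. Differences between group means were not used in the choice.

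RNA was taken from female animals of strain Xinb3, aged 5 days, with 20 animals kept in 35 mL of solution. The groups were isoprenaline at 100 mg/L (1 and 6 h), a mixture of isoprenaline at 100 mg/L and propranolol at 1 mg/L (1 and 6 h), propranolol at 4 mg/L (1, 6 and 24 h), propranolol at 1 mg/L (1, 3, 6 and 24 h) and control (0, 1, 3, 6 and 24 h). What the control solution contained is not stated in the labels. Each group had 3 libraries, apart from propranolol 4 mg/L at 6 h with 2 and control at 0 h with 1, which the choice of members did not use. The labels name the whole body as the tissue and give no value for single animals, so each library stands for a pool of animals and of cell types.

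Isoprenaline activates beta-adrenergic receptors and propranolol blocks them. In vertebrates these receptors pass the adrenaline signal to the heart and many other organs, and propranolol is known in D. magna for changing the heart rate. A whole animal mixes RNA from gut, epidermis, muscle, fat cells, ovary and nervous system, so an ID made in a single organ moves when the organ's share of the RNA moves and also when its cells make more or less of it. In these bulk samples, fewer cells of a type and less RNA per cell cannot be told apart.

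The IDs carry no gene names: none of them was matched to any of the 28335 genes of the RefSeq annotation of the species used here, so no role, sequence or position is given for a member, and the labelled tissue could not be checked by its markers. All 862155 values were whole multiples of the value of 1 read, and the libraries held 13.5 to 43.7 M reads. A floor of 3 reads stands for 0.0686 to 0.222 CPM, which covers counting error only. CPM is not divided by transcript length, so levels are compared between libraries for the same ID, and a comparison between IDs is of their shares of reads. Whether replicates were separate cultures is not said in the labels, and the p-values below reflect the spread among these libraries alone, which may be technical.

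The index had the third highest mean of all IDs, 15691 CPM over 44 libraries, and it was either abundant or scarce. It lay under 400 CPM in 15 of the 44 libraries, with 386 CPM as the highest of them, and over 14000 CPM in 25, with 14923 CPM as the lowest. The other 4 libraries lay between: propranolol 1 mg/L at 1 h, replicate 3 (825 CPM), the mixture at 6 h, replicate 1 (1635 CPM), control at 6 h, replicate 1 (3926 CPM), and propranolol 4 mg/L at 24 h, replicate 3 (6298 CPM). The full span was 84.7 to 46066 CPM. Both states occurred among replicates of the same group in most groups, control included.

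At 1 h, the index had 29522, 84.7 and 25430.5 CPM with isoprenaline. It had 28289.8, 32465 and 24617 CPM with the mixture, where all 3 libraries were high. Propranolol 4 mg/L gave 29095, 140.2 and 24759 CPM, and propranolol 1 mg/L gave 32087.5, 208 and 825 CPM. Control at 1 h held 29688, 19084 and 17631 CPM, so every control library at this hour was high, and the exposed groups other than the mixture each included at least 1 library far below them.

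At 3 h, propranolol 1 mg/L gave 27287, 153 and 20539.5 CPM of the index, and control gave 28078, 369.96 and 14923 CPM. Both groups held a pair of high libraries and a low replicate 2, and their ranges overlapped.

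At 6 h, isoprenaline gave 24406, 21234 and 31331.5 CPM, and all 3 libraries were high. The mixture gave 1635, 124 and 29568.5 CPM, propranolol 4 mg/L gave 33625 and 386 CPM, and propranolol 1 mg/L gave 22745, 194 and 175 CPM. Control held 3926, 297 and 298 CPM. Isoprenaline was the exposure with no low library at this hour, and control the group with no library over 14000 CPM.

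At 24 h, propranolol 4 mg/L gave 124, 46066 and 6298 CPM, propranolol 1 mg/L gave 233, 40026 and 19535 CPM, and control gave 306, 22432 and 147 CPM. The highest library of all and a library of 124 CPM were thus replicates of the same exposure and hour, 370.2-fold apart. The highest and lowest libraries of a group were closest for the mixture at 1 h (1.32-fold), isoprenaline at 6 h (1.48-fold) and control at 1 h (1.68-fold), and 13.2-fold or more apart in the other 12 groups of 2 or 3 libraries.

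**Figure D1:**
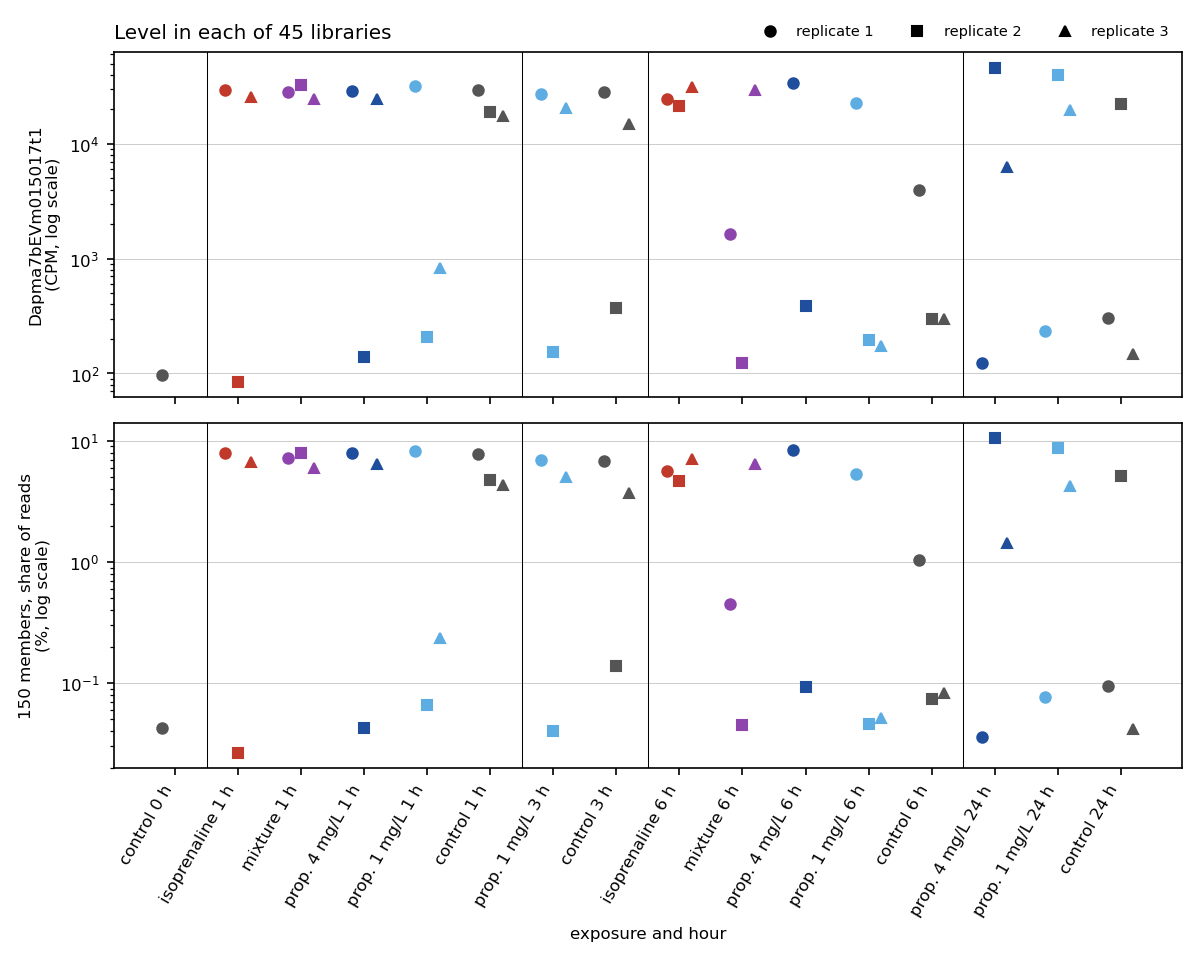
Level in each of 45 libraries by exposure and hour, on log axes. The upper panel plots CPM of Dapma7bEVm015017t1 and the lower panel the percentage of all reads taken by the 150 members, with replicates 1, 2 and 3 as circles, squares and triangles. The index lies under 400 CPM in 15 and over 14000 CPM in 25 of the 44 libraries used to choose the members, and the share of the members follows it over 0.0266% to 10.5% of reads.

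The members together took 0.0266% to 10.5% of a library's reads, a 394-fold range with a median of 4.49%. The highest share was with propranolol 4 mg/L at 24 h (replicate 2) and the lowest with isoprenaline at 1 h (replicate 2). The index alone made up 22.9% to 46.2% of the members' reads. The other 149 had means of 5.82 to 1313 CPM (median 66.3), and 3 members stood among the 100 most abundant IDs of the table.

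The rule set a lower limit on both the SD and r, so the size of the members' movement is given as a description. Their within-group SD ran from 1.4996 to 4.09 on the log2 scale (median 2.76), against a median of 0.34 for the 13366 IDs with at least 5 CPM. The slope of a member's deviations on those of the index ran from 0.418 to 1.15 with a median of 0.770, and 18 members had a slope over 1. Slopes were steeper for members with more reads, with r = 0.864 between slope and log2 mean CPM over the members; the added 1 CPM flattens the low end of scarce IDs, and its part in this was not tested.

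Dapma7bEVm021018t1 followed the index most closely (r = 0.999). It had 781, 693 and 1011 CPM with isoprenaline at 6 h, against 105, 5.55 and 6.81 CPM in control at 6 h and 846, 529 and 485 CPM in control at 1 h. At 24 h it had 4.98, 1459 and 190.2 CPM with propranolol 4 mg/L, 5.53, 1234 and 555 CPM with propranolol 1 mg/L and 9.34, 649 and 4.67 CPM in control. Each group thus repeated the order and rough spacing seen for the index.

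Dapma7bEVm022050t1 had the steepest slope (1.15) and, after the index, the highest mean of the members (1313 CPM). It had 2025, 1883 and 2812 CPM with isoprenaline at 6 h, against 208, 6.55 and 12.0 CPM in control at 6 h. Its highest library was at 24 h with propranolol 4 mg/L (replicate 2, 4283 CPM) and its lowest at 24 h in control (replicate 3, 2.28 CPM).

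Dapma7bEVm009786t1 had nearly the same mean (1313 CPM) and a shallower slope of 0.824. It had 2448, 1779 and 2592 CPM with isoprenaline at 6 h, against 903, 38.6 and 44.7 CPM in control at 6 h. At this hour these members took like shares of reads where they were high, and Dapma7bEVm009786t1 took the larger share where they were low.

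Other members close to the index nearly vanished from the library where the index was lowest. In replicate 2 of isoprenaline at 1 h, Dapma7bEVm010312t1 had 0.296 CPM, against 511 to 981 CPM in control at 1 h. Dapma7bEVm001287t1 had 0.370 CPM there, against 192 to 394 CPM in control. Of 6750 member values in 45 libraries, 42 were 0. These fell in 24 members and 10 libraries, 15 of them in replicate 2 of isoprenaline at 1 h, the library with the fewest reads.

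Membership ended at r = 0.988 with no gap. The last 3 members, Dapma7bEVm016147t1, Dapma7bEVm027831t1 and Dapma7bEVm009714t1, had r of 0.987842, 0.987769 and 0.987735. The next 3 IDs, Dapma7bEVm000850t1, Dapma7bEVm001162t1 and Dapma7bEVm000395t1, had 0.987685, 0.987677 and 0.987673. The member just inside, Dapma7bEVm009714t1, had 57.4, 50.8 and 70.8 CPM with isoprenaline at 6 h, against 8.45, 0.317 and 1.09 CPM in control at 6 h.

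The 150 are the upper end of a larger block. Of the 1172 IDs past both limits, 762 had r over 0.5, 701 over 0.9 and 600 over 0.95, while 175 lay under -0.5 and the lowest r was -0.871. Within the members, the 11175 pairs had a median r of 0.989 and a lowest r of 0.962. The 600 IDs over 0.95 took 0.161% to 15.6% of reads, with a median of 7.21%. The 150 IDs at the opposite end, with r from -0.871 to -0.541, took 0.0843% to 1.98%. They took more reads than the members where the members were low: in replicate 2 of isoprenaline at 1 h their share was 1.97%, beside 0.0266% for the members.

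**Figure D2:**
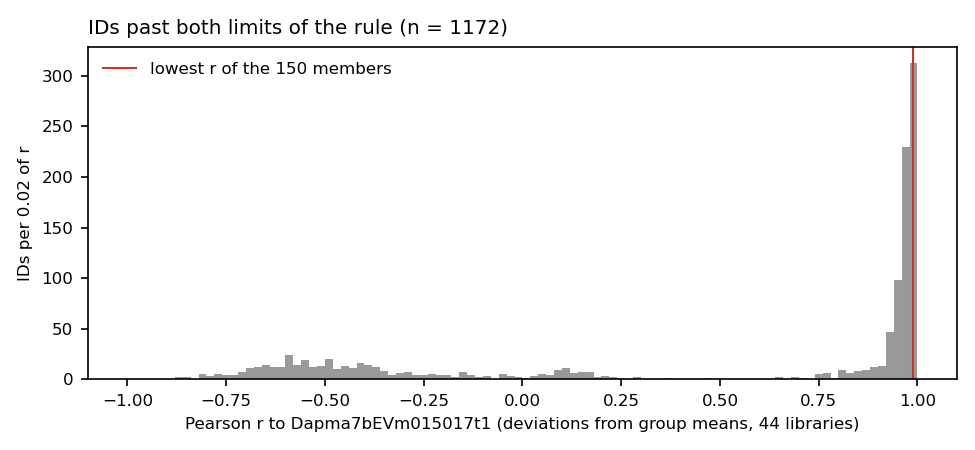
Number of IDs per 0.02 of Pearson r to Dapma7bEVm015017t1, for the 1172 IDs past both limits, with deviations from group means over 44 libraries. The line marks the lowest r of the 150 members (0.988), which lies at the upper end of the main peak, and a low broad group lies under -0.5 (175 IDs).

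The same IDs moved together at each hour and in each exposure. The median r of the members to the index was 0.996 over the 15 libraries of 1 h, 0.997 over 6 of 3 h, 0.989 over 14 of 6 h and 0.994 over 9 of 24 h. Within single exposures it ran from 0.990 in control (12 libraries) to 0.999 with isoprenaline (6 libraries). Over the 1172 IDs past both limits, the median r was 0.977, 0.981, 0.952 and 0.943 at 1, 3, 6 and 24 h. By exposure that median ran from 0.932 with the mixture to 0.991 with isoprenaline, so high r was not particular to the members. These libraries are the ones that chose the members, and a gap between high and low libraries within a group is enough to give a high r. In the mixture at 1 h, where all 3 libraries were high and within 1.32-fold, 118 of the 150 members ranked the 3 libraries as the index did, and for isoprenaline at 6 h (1.48-fold) 122 did. These deviations also entered the choice, so the counts are a description. The fewest, 48, did so with propranolol 1 mg/L at 6 h, where replicates 2 and 3 were both low and close.

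**Figure D3:**
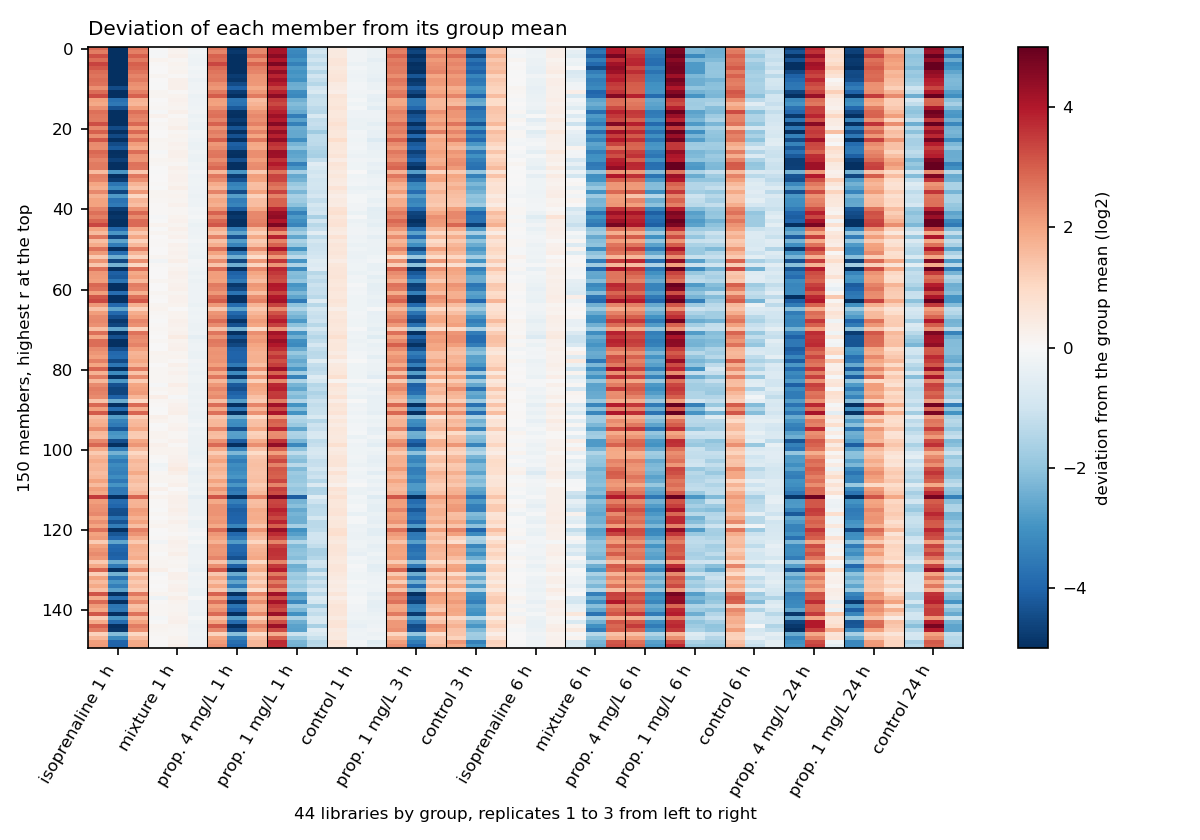
Deviation of each of the 150 members from its group mean in log2(CPM + 1), in 44 libraries by group, with replicates 1 to 3 from left to right and the highest r at the top. Red is above and blue below the group mean. Columns are nearly of 1 colour, and the mixture at 1 h, control at 1 h and isoprenaline at 6 h are pale since their 3 libraries were alike.

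The library numbers carried a pattern of their own. Replicate 2 had the lowest mean deviation of the members in 10 of the 12 groups at 1, 3 and 6 h. These were 3 of 5 groups at 1 h, 2 of 2 at 3 h and 5 of 5 at 6 h. The index itself was lowest in replicate 3 with propranolol 1 mg/L at 6 h (175 CPM, against 194 CPM in replicate 2). In control at 6 h, replicates 2 and 3 held nearly the same index CPM (297 and 298). At 24 h, replicate 2 had the highest mean deviation in 3 of 3 groups. The labels do not say what a replicate number stands for, and its part in the members' levels was not tested. Over the 44 libraries the mean deviation of the members had r = 0.412 with the deviation of log2 total reads and r = -0.395 with that of the share of reads in the 10 most abundant IDs; the part of depth or composition was not tested.

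The control library of 0 h, which played no part in the choice, was a low one. It had 96.9 CPM of the index, and the members took 0.0423% of its reads. All 150 members were below their own median over the other 44 libraries, against 37.7% of all IDs. For the median member 7 of the 44 libraries lay lower, against 11 for the median of the 1172 IDs past both limits and 33 for the median ID of the table. Dapma7bEVm021018t1 had 1.45 CPM at 0 h and at least 3.19 CPM elsewhere. It was among 8 of the 150 members for which none of the 44 other libraries was lower than 0 h. Ties are counted here: Dapma7bEVm010968t1 had 0 CPM at 0 h and also a lowest value of 0 CPM over the 44. The same held for 57 of the 1172 IDs past both limits and 1232 of all 19159 IDs. The index had a lower library, replicate 2 of isoprenaline at 1 h (84.7 CPM). Since the members were chosen to move together, these counts are not separate observations. The low state was thus present in a library labelled 0 h, although a single library gives no spread.

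Group means, which the choice did not use, also moved together. Over the 15 groups, the r of a member's group means with those of the index had a median of 0.981 (0.901 to 0.996). The median was 0.844 for the 1022 other IDs past both limits. Those take in the 175 IDs with a within-group r under -0.5. Non-members with r over 0.9 were not compared separately, so the contrast does not set the members apart from the rest of the block. The groups share an experiment, and each mean rests on how many of its 2 or 3 libraries were high, so this is a description. The share of a member's variance that lay between groups had a median of 25.8% (19.7% to 33.3%). Most of the members' variation thus lay between replicates. With 15 groups over 44 libraries, equal group means would give 32.6% on average, so a larger part between replicates is not particular to the members. The limit on the SD favours IDs that vary between replicates: the median was 30.1% over the 1172 IDs past both limits and 42.3% over IDs with at least 5 CPM.

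Whether the exposures moved the members was asked with limma over all 19159 IDs, with 16 group means in a shared fit and Benjamini-Hochberg adjustment within each comparison. No member passed an adjusted p of 0.05 in any of the 14 comparisons. Choosing IDs with a large within-group SD makes them hard to call: the median standard error (SE) of a member's difference was 2.18 on the log2 scale, and 2.44 for propranolol 4 mg/L at 6 h, against 0.279 and 0.312 over all IDs. At this spread and depth, differences of less than several log2 units were not detectable, and the lack of calls does not show that levels were alike.

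The widest difference from control was for isoprenaline at 6 h, where members had a median log2 difference of 4.16 (2.16 to 6.33), against -0.04 over all IDs. All 150 members were higher in each isoprenaline library than in each control library, against 15% of all IDs. The members were chosen to move with the index, so counts of members, here and in the comparisons below, are not separate observations. By limma 0 members were called, against 1.68% of all IDs, and 14 members had an unadjusted p under 0.05, against 22.4% of all IDs. Without replicate 1 of control, 86 members passed unadjusted, against 31.4% of all IDs, and without any other library 0 did. edgeR on the recovered reads called 0, against 1.61% of all IDs, with 1 unadjusted, against 22.6%. The index averaged 25657 ± 5164 CPM with isoprenaline and 1507 ± 2095 CPM in control (SD, n = 3 each). Its log2 difference was 5.17 (SE 2.80, limma adjusted p 0.253). When the fit held only these 2 groups, 140 members were called, all higher, against 10.9% of all IDs called and 5.01% called higher, and the limma adjusted p of the index was 0.0332. With all groups and a replicate block within each hour, added after seeing the data, 26 members were called, all higher, against 13% of all IDs called and 4.27% called higher, and the index had an SE of 1.88 and a limma adjusted p of 0.0629. The call thus depended on how the spread was estimated. With any 1 of the 6 libraries left out, 0 members were called and their median lay between 3.61 and 5.06.

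The same control group stood apart over time. Control at 6 h was below control at 1 h by a median of -4.10 for the members (-6.22 to -1.95), with all 150 lower in each 6 h library than in each 1 h library, against 14.7% of all IDs. Limma called 0 members, against 0.00522% of all IDs, with 22 unadjusted, against 21.8% of all IDs. The unadjusted count was 91 without replicate 1 of 6 h, against 30.2% of all IDs, and 0 to 3 without any other library. edgeR called 0, also against 0.00522%, with 1 unadjusted, against 21.1%. The index difference was -4.93 (SE 2.80, limma adjusted p 0.273). With only the 2 groups in the fit, 79 members were called, all lower, against 3.93% of all IDs called and 3.34% called lower. This comparison and that of isoprenaline at 6 h share the 3 control libraries of 6 h, so they are not separate evidence.

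Control at 24 h was below control at 1 h by a median of -3.46, and control at 3 h by -1.51, which was -0.11 without replicate 2 of 3 h. At 24 h, limma called 0 members, against 12.9% of all IDs, with 4 unadjusted, against 29.0%. edgeR called 0, against 11.8%, with 0 unadjusted, against 27.9%. Without replicate 2 of 24 h the median was -5.23 and 113 members passed unadjusted by limma, against 32.1% of all IDs. edgeR gave medians of -1.79 at 24 h and -0.71 at 3 h. Every 24 h library was below every 1 h library for 51 members, against 17.9% of all IDs. At 3 h, limma and edgeR called 0 members, against 0% of all IDs, with 0 unadjusted in each, against 2.33% and 1.84%. A single member had every 3 h library below every 1 h library, against 2.83% of all IDs.

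At 6 h, the median log2 difference of the other exposures was 1.252 for the mixture, 1.91 for propranolol 4 mg/L and 0.37 for propranolol 1 mg/L. Each turned with 1 library left out: it was -0.19 for the mixture without its replicate 3, -0.87 for propranolol 4 mg/L without its replicate 1 and -1.32 for propranolol 1 mg/L without its replicate 1. The last was also -0.19 or -0.02 without replicate 2 or 3 of control. On recovered reads edgeR gave higher medians, of 2.52, 3.68 and 2.03 in that order, beside 3.75 for isoprenaline. Limma and edgeR called 0 members in each, with 0 unadjusted in each tool, against 1.67%, 3.94% and 0% of all IDs called by limma and 1.99%, 1.92% and 0% by edgeR. Unadjusted, 3.25% to 16.7% of all IDs passed in these comparisons by limma and 3.28% to 16.6% by edgeR. In all 3 groups the lowest library had under 400 CPM of the index, so they overlapped control.

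At 1 h, where control was high throughout, the members' median log2 difference was -1.69 for isoprenaline, 0.35 for the mixture, -1.56 for propranolol 4 mg/L and -2.89 for propranolol 1 mg/L. Limma and edgeR called 0 members, with 0 unadjusted in each, against 0.0157%, 0%, 0.0104% and 0% of all IDs called by limma and at most 0.00522% by edgeR. Unadjusted, 0.334% to 3.241% of all IDs passed by limma and 0.642% to 3.97% by edgeR. For the mixture, 3 members were higher in each exposed library than in each control library, against 9.11% of all IDs. The negative medians of isoprenaline and propranolol 4 mg/L rested on replicate 2: without it the members' median was 0.46 with isoprenaline and 0.45 with propranolol 4 mg/L. For propranolol 1 mg/L it was -1.73 without its replicate 2 and -4.63 without its replicate 1, where 39 members passed unadjusted by limma, against 5.49% of all IDs. For the mixture it ran from 0.17 without replicate 3 of control to 0.62 without replicate 1 of control. edgeR gave medians of -0.16 for isoprenaline, 0.33 for the mixture, -0.11 for propranolol 4 mg/L and -0.91 for propranolol 1 mg/L.

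For propranolol 1 mg/L at 3 h the median was -0.28, but 1.66 without its replicate 2 and 0.64 or 0.26 without replicate 1 or 3 of control. At 24 h it was 1.33 for propranolol 4 mg/L, with -0.16 without its replicate 2, and 1.84 for propranolol 1 mg/L, with 0.78 to 3.605 over the libraries left out. edgeR gave medians of 0.23 at 3 h and 1.27 for each dose at 24 h. Limma and edgeR called 0 members in these 3 comparisons, with 0 unadjusted in each, against 0%, 1.61% and 0.0157% of all IDs called by limma and 0%, 3.02% and 0% by edgeR. Unadjusted, 2.97% to 15.5% of all IDs passed by limma and 2.89% to 19.0% by edgeR.

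The other ways of estimating the spread called no member in the remaining comparisons. Fits that held the 2 groups alone called 0 members by limma, against 16% of all IDs for control at 24 h against 1 h, 0.522% for the mixture at 1 h, 0.0313% for propranolol 4 mg/L at 24 h and 0% in each other comparison. Unadjusted, 69 members passed for control at 24 h against 1 h, against 34.1% of all IDs, 8 for the mixture at 1 h, against 16.4%, and 0 in the others. With the replicate block within each hour, limma called 0 members, against 0.0313% of all IDs for isoprenaline and for propranolol 4 mg/L at 1 h, 4.75% for the mixture at 6 h, 6.65% and 3.98% for propranolol 4 mg/L at 6 and 24 h, 0.00522% for propranolol 1 mg/L at 24 h and 0% in each other comparison. In the blocked fit, 38 members had an unadjusted p under 0.05 for propranolol 1 mg/L at 1 h, against 3.48% of all IDs, and 0 did in the others named here.

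**Figure D4:**
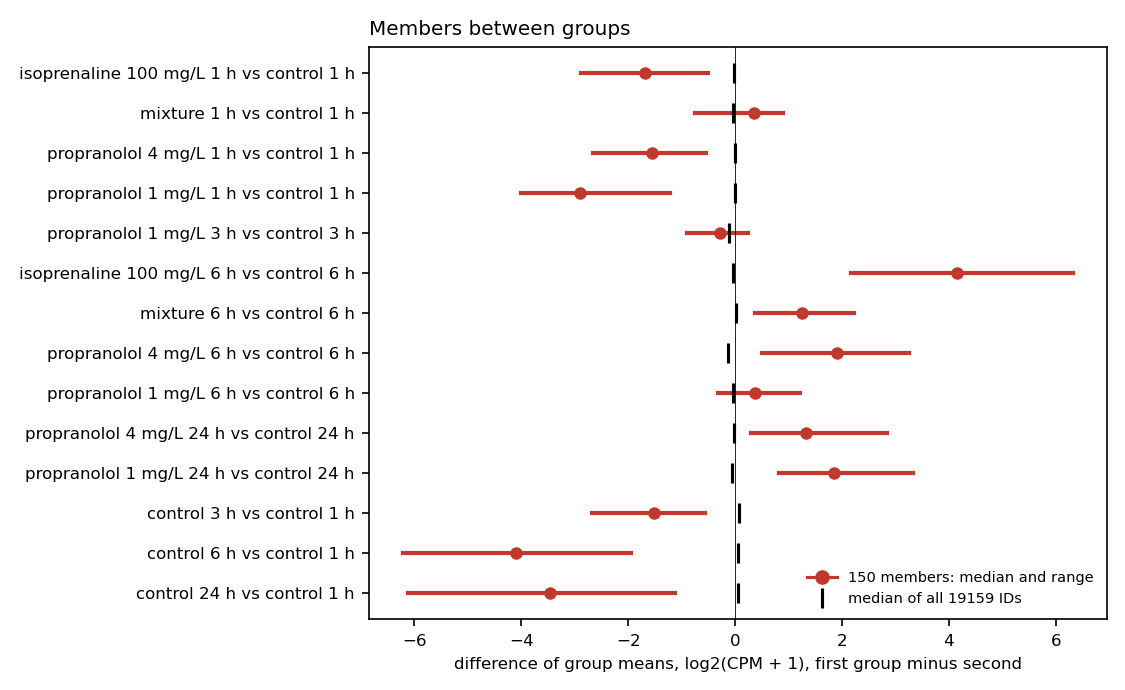
Difference of group means in log2(CPM + 1), first group minus second, for 14 comparisons. Points and bars give the median and range of the 150 members, and black ticks the median of all 19159 IDs, which lies near 0. Members are highest for isoprenaline at 6 h (median 4.16) and lowest for control at 6 h against 1 h (-4.10).

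The difference between the effects of isoprenaline at 6 h and at 1 h was tested in the shared fit. Without replicate 2 the members' median at 1 h was 0.46, of the same sign as at 6 h. The members' median was 5.70, and for the index it was 7.59 (SE 3.96, limma adjusted p 0.411). No member was called, against 0% of all IDs, and 5 had an unadjusted p under 0.05, against 9.59% of all IDs. The 5 other differences of this kind, for the mixture, propranolol 4 mg/L (6 and 24 h) and propranolol 1 mg/L (6 and 24 h), had medians of 0.94, 3.57, 2.91, 3.37 and 4.86, with 0 members called by limma and 0 unadjusted, against 0%, 0.00522%, 0.00522%, 0% and 0% of all IDs called and 1.48% to 6.09% unadjusted. edgeR was not run on these differences. Each of them, that of isoprenaline included, uses the same control libraries of 1 h. Those of the same later hour also share its control libraries, so their like signs are not separate evidence.

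Since the members moved as a block, a further fit described how each stood relative to the index. It added the log2(CPM + 1) of the index as a covariate, over the other 149 members and all remaining IDs, and was chosen after seeing the data. The choice of members made the spread around the index small, so this fit gives no test of a member, and its log2 differences are a description.

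Averaged over control and both propranolol doses, Dapma7bEVm009906t1 had the lowest log2 difference of 24 h from 1 h relative to the index. It had 0.680%, 0.393% and 0.380% of the index CPM with propranolol 4 mg/L at 24 h, against 1.84%, 0.447% and 1.499% at 1 h. With propranolol 1 mg/L it had 0.611%, 0.265% and 0.247% at 24 h, against 1.79%, 1.59% and 1.41% at 1 h. In control it had 0.221%, 0.252% and 0.0691% at 24 h, against 1.67%, 1.53% and 1.37% at 1 h. The hours overlapped with propranolol 4 mg/L and were apart with propranolol 1 mg/L and in control. At a given level of the index the log2 difference was -1.30 with propranolol 4 mg/L, -1.996 with propranolol 1 mg/L and -2.003 in control. With propranolol 4 mg/L, other members were lower, Dapma7bEVm000951t1 the lowest.

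Dapma7bEVm000951t1 was likewise lower at 24 h. In the library richest in the index at 24 h, replicate 2 of propranolol 4 mg/L, it stood at 0.308% of the index CPM, against 1.14%, 0.671% and 0.999% in the 3 libraries of 1 h. In control it had 0.301%, 0.364% and 0% at 24 h, against 1.24%, 1.28% and 1.03% at 1 h. The log2 difference at a given level of the index was -1.54 with propranolol 4 mg/L, -1.74 with propranolol 1 mg/L and -1.39 in control.

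Relative to the index, Dapma7bEVm005439t1 was higher at 24 h in control. There it had 1.14%, 0.164% and 1.14% of the index CPM at 24 h, against 0.0973%, 0.0765% and 0.0791% at 1 h. Every 24 h library was thus above every 1 h library. With a slope on the index of 0.574, however, its percentage tends to be higher where the index is scarce, whatever the hour. Both values of 1.14% came from libraries low in the index (306 and 147 CPM), while control at 1 h held 17631 to 29688 CPM. The 24 h library rich in the index (22432 CPM) had 0.164%. With propranolol 1 mg/L the hours overlapped, with 1.32%, 0.142% and 0.148% at 24 h, against 0.0765%, 0.372% and 0.125% at 1 h. There too the highest percentage of each hour came from a library low in the index (233 CPM at 24 h and 208 CPM at 1 h). The log2 difference was 0.24 with propranolol 4 mg/L (-0.023 without replicate 2 of 24 h), 1.12 with propranolol 1 mg/L and 1.22 in control. For Dapma7bEVm003035t1 the log2 difference was 0.57 with propranolol 4 mg/L, 1.37 with propranolol 1 mg/L and 0.68 in control. These 4 IDs were chosen after their values were seen, and in the libraries with little index their percentages rest on few reads.

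At a given level of the index, 65 of the 149 members were lower at 24 h than at 1 h in all of propranolol 4 mg/L, propranolol 1 mg/L and control, 33 were higher in all 3, and 51 were mixed, against 29.7% lower and 35.3% higher in all 3 among all IDs. Across the 149 members, the differences with propranolol 4 mg/L had r = 0.752 with those of control, and those with propranolol 1 mg/L had r = 0.872, against 0.838 and 0.846 across all IDs. Genes are not independent replicates, and the 3 comparisons use separate libraries but share the fitted slope on the index.

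**Figure D5:**
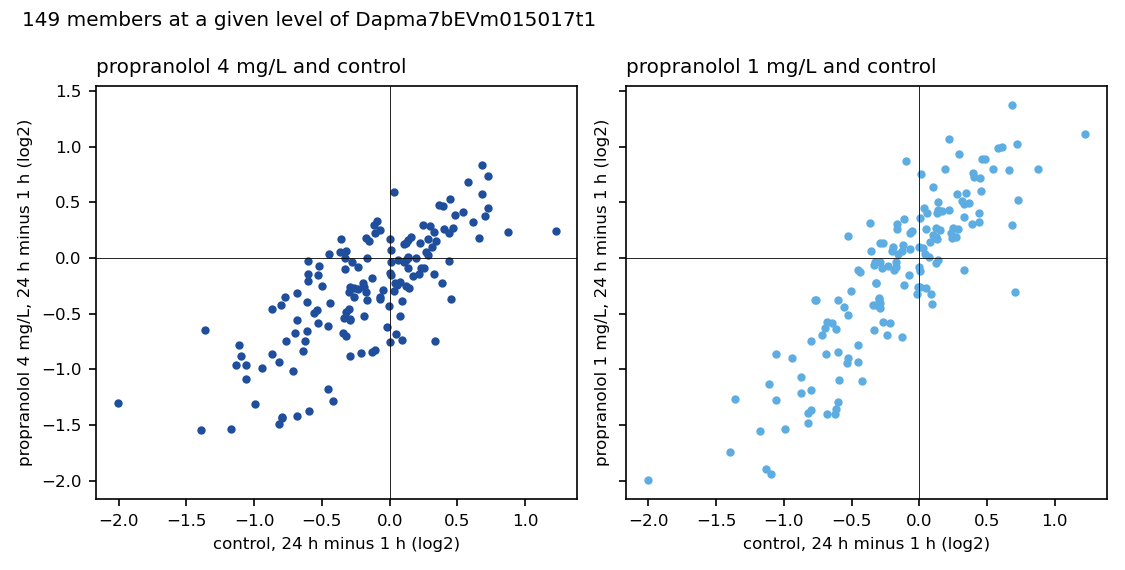
Log2 difference of 24 h minus 1 h at a given level of Dapma7bEVm015017t1, each point 1 of 149 members. The vertical axes show propranolol 4 mg/L on the left and propranolol 1 mg/L on the right, and the horizontal axes control. Points run from lower left to upper right (r = 0.752 on the left and 0.872 on the right).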

How the data were processed

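The deposited table gives CPM for 19159 IDs, made by the authors from RNA-seq reads; the tools in the submitters' processing notes are Bowtie2 2.1.0, Trim Galore 0.3.2, edgeR and HTSeq. The sources used here give no genome build or annotation. Libraries were prepared with a stranded mRNA kit from 500 ng of total RNA, per the labels. Dividing by each library's smallest step gave whole reads for 100% of values (tolerance 0.01 read), with totals of 13.5 to 43.7 M per library. Groups came from the titles.

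Tests used limma 3.58.1 (trend and robust, R 4.3.3) on log2(CPM + 1), with 45 libraries, 16 group means and 29 residual degrees of freedom. P-values were adjusted by Benjamini-Hochberg over all IDs, separately in each comparison. Fold changes on this scale understate the change of low IDs. A filter of at least 1 CPM in at least 3 libraries removed no ID. The covariate fit left 28 degrees of freedom and is used for differences only. Alternatives were a pseudocount of 0.25, no filter, only the compared groups, replicate blocks, median log-ratio scaling, edgeR 4.0.16 (quasi-likelihood) on recovered reads, and leaving out each library. The tests of group differences were checked on simulated reads in which IDs varied independently. No block of IDs moved together there, so the check does not cover the members.

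Members and lists were chosen with earlier results of these data known. Named IDs are the index, the 4 other members of highest r, the 4 of highest mean CPM, the 3 just inside and the 3 just outside the limit; the shared limma fit called no member against control, so none was named by change. The 4 IDs of the covariate fit were picked from their values. The planned gene lists could not be used without names.

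Replicate numbers are not said by the labels to pair libraries. Deviations of same-numbered libraries correlated over 0.1 in every pair for propranolol 1 mg/L against control at 1 h (lowest r 0.220), 3 h (0.164) and 6 h (0.389), and not in the other comparisons with 3 pairs.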

Additional observations from a re-analysis of the deposited data

How the results depend on the processing

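The count of members called stayed at 0 in the 14 comparisons under a pseudocount of 0.25, no filter, median log-ratio scaling, edgeR and the replicate block across all hours, and in all 83 results with a library left out. Fits of only the compared groups called 140 members for isoprenaline at 6 h and 79 for control at 6 h against 1 h (index -4.93 in that fit, limma adjusted p 0.0488, and 5.17 with 0.0332 for isoprenaline), and 0 in the other 12 (0% to 16% of all IDs). A replicate block within each hour, added after seeing the data, called 26 for isoprenaline at 6 h, all higher (13% of all IDs called, 4.27% higher), where the numbers did not pair (lowest r -0.181), and 0 elsewhere; where the numbers did pair, the blocked count was 0, as without the block. Scaling moved the median of all IDs by over 0.1 for propranolol 4 mg/L at 6 h (0.04, against -0.12 unscaled) and propranolol 1 mg/L at 3 h (0.02, against -0.11).

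The sign of the index difference turned with the libraries left out: -3.87 to 0.35 for isoprenaline at 1 h (turned without its replicate 2), -0.64 to 3.30 for the mixture at 6 h (replicate 3), and for propranolol 4 mg/L -3.53 to 0.32 at 1 h (replicate 2), -0.87 to 5.58 at 6 h (replicate 1) and -0.18 to 4.08 at 24 h (replicate 2). For propranolol 1 mg/L it was -2.21 to 2.14 at 3 h (turned without its replicate 2 or control replicate 1 or 3) and -1.93 to 1.62 at 6 h (its replicate 1 or control replicate 2 or 3), and edgeR gave 0.20 at 3 h. With a library left out, propranolol 4 mg/L at 6 h has 1 library, assumed to vary like the other groups. At a given level of the index, the differences of the 4 named IDs kept their sign under every alternative run except Dapma7bEVm005439t1 with propranolol 4 mg/L, which ran from -0.023 (without replicate 2 of 24 h) to 0.43 over the libraries left out. The causes were not tested. Where the index is scarce, some members lie near the floor of 3 reads, which limits how well their low level is known. The choice itself found 120 of the 150 members again with a pseudocount of 0.25, 122 with Spearman's rho, 104 without the 24 h libraries and at least 130 without any single library.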
